A study of Mus musculus with 4 samples.

Results

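The keratin genes Krt5, Krt7, Krt8, Krt10, Krt14, Krt15, Krt18, Krt19 and Krt79 and the transcription factor gene Trp63 were followed in RNA sequencing libraries of mouse subcutaneous white adipose tissue. These 10 genes were taken by their gene symbols from a table of 51912 genes, as genes known from epithelial ducts (Krt7, Krt8, Krt18 and Krt19, called luminal here) and from basal or epidermal epithelium (Krt5, Krt10, Krt14, Krt15, Krt79 and Trp63). All mice were C57BL/6 and 8 weeks old. They had received BML-260, a compound described as inhibiting the DUSP22 phosphatase, or dimethyl sulfoxide as vehicle; the sources used here give no dose, route or duration. The 4 libraries are called vehicle A, vehicle B, BML-260 A and BML-260 B. Tissue of 8 mice is mentioned, 4 for each treatment, but not which mice went into which library, so a p-value here speaks of the spread among libraries, which may be technical. Expected counts, the estimated reads per gene, summed to between 19999836 and 23726781 in each library.

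Keratins are the intermediate filament proteins of epithelial cells. A filament needs a partner of each type: type I keratins (Krt10, Krt14, Krt15, Krt18 and Krt19) pair with type II keratins (Krt5, Krt7, Krt8 and Krt79), as Krt8 with Krt18 in simple and ductal epithelium and Krt5 with Krt14 in the basal layer of skin and the outer layer of gland ducts. The type I genes lie together on mouse chromosome 11 and the type II genes, with Krt18, on chromosome 15. Trp63 encodes p63, a relative of p53 that maintains basal epithelial cells and activates Krt5 and Krt14 there. Subcutaneous fat lies under the skin and, in the groin, around the mammary gland, so epithelial transcripts in such tissue can come from ducts or from attached skin. The sex-linked genes, given below, had the pattern of male tissue in every library.

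The defining keratins of basal and of simple epithelium had few reads or none. Krt5, Krt14 and Krt15, which define basal epithelium, had 4 reads among them in all 4 libraries together, and the luminal pair Krt8 and Krt18 had 38. Trp63 had 949 reads, more than the 9 keratins together (742). Krt79 followed with 327 reads, then Krt10 with 192 and Krt19 with 153. The words luminal, basal and epidermal are used below only to sort the genes by where they are known from, and no epithelial cell type is ascribed to the tissue. Which cells the reads came from was not tested.

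The 100 bases before the annotated start of transcription are shown for 3 of the keratins: Krt79 and Krt10, which had the most reads of the 9, and Krt5, which had 2. They are written 5′ to 3′ on the strand of the gene, from RefSeq's annotation of GRCm38.p6, with the TATA box letters TATAAA in capitals where present. The windows are chr15:101940325-101940424 for Krt79, chr11:99389365-99389464 for Krt10 and chr15:101712906-101713005 for Krt5, all on the minus strand.
Krt79: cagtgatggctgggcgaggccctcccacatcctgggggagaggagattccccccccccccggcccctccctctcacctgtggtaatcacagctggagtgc
Krt10: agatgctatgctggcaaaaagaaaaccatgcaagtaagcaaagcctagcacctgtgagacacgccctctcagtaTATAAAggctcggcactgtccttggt
Krt5: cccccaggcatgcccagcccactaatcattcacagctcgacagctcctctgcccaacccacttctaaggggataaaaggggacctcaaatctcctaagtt
Of the 10 genes, 7 had an entry in that promoter table (Krt5, Krt7, Krt8, Krt10, Krt14, Krt18 and Krt79). TATAAA, searched on both strands, was found in 1 of the 7, in Krt10, where its first base lies 26 bases before the start. Of all 32851 promoter windows of this length, 5.56% hold it on either strand. The letters are a description of the window only.

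**Figure D1:**
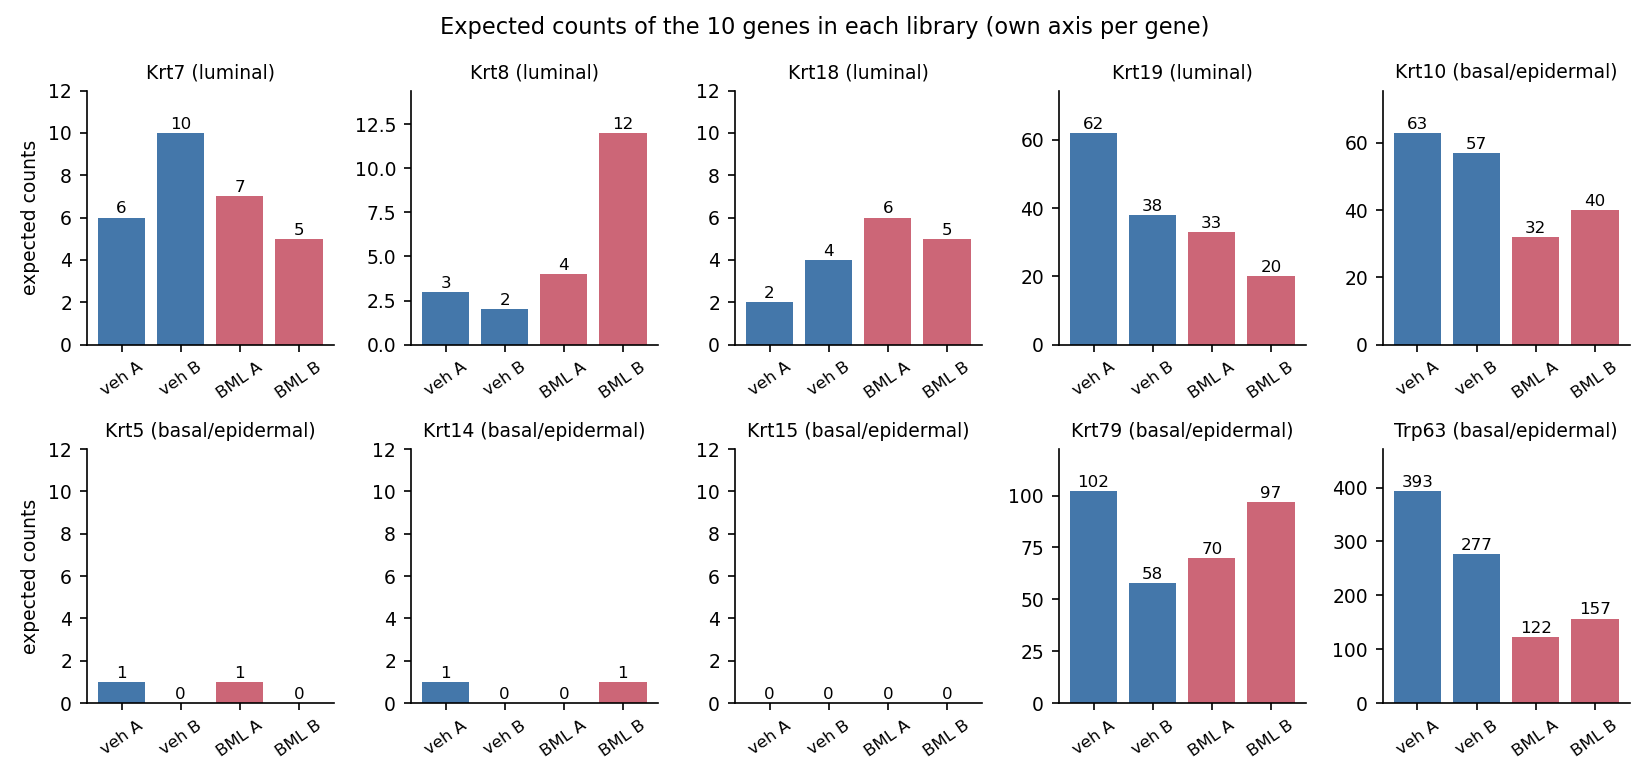
Expected counts (y axis, linear from 0, a separate scale for each gene) of the 10 genes in the 4 libraries (x axis); blue bars are vehicle and red bars BML-260. Trp63 stands at 393 and 277 in vehicle and 122 and 157 in BML-260, while Krt5, Krt14 and Krt15 have at most 1 read in any library.

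The comparison of BML-260 with vehicle asks how treatment changed the level of each gene. None of the 10 genes passed the test, edgeR's quasi-likelihood test over 15643 genes with Benjamini-Hochberg adjustment at 0.05; 1 gene of the whole table did, which is 0.00639% of genes tested. Only 4 of the 10 had enough reads to enter it: Trp63, Krt10, Krt19 and Krt79. Trp63 lay 2.35-fold lower with BML-260, Krt19 and Krt10 lay lower by a smaller factor with wide intervals, and Krt79 differed by less than its error. In bulk tissue fewer cells of a type and less RNA per cell cannot be told apart. The other 6 were below the filter, which needs about 10 reads in at least 2 libraries. Krt7, just under it, had 10 reads in vehicle B alone. The keratin just above it, Krt20, had 7, 25, 16 and 21 reads. Here and below, 4 values in a row are for vehicle A, vehicle B, BML-260 A and BML-260 B.

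Among the luminal keratins, Krt19 was the most abundant. It is a small type I keratin of ducts and of other simple epithelia, and lies on chromosome 11 at 100140810 to 100148665 (GRCm38, minus strand, protein coding). It had 62, 38, 33 and 20 reads, or 2.94, 1.64, 1.59 and 0.911 CPM (reads scaled to library size, with library sizes adjusted by TMM). Both BML-260 values lay below both vehicle values, but vehicle B and BML-260 A were nearly equal. The vehicle mean was 2.29 ± 0.920 CPM and the BML-260 mean 1.25 ± 0.479 CPM (SD, n = 2 each). The log2 fold change was -0.87 (SE 0.48, edgeR adjusted p = 0.558), with a 95% interval from -2.09 to 0.35.

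Krt8 and Krt18 are the filament pair of simple epithelia, Krt8 on chromosome 15 at 101996698 to 102004482 and Krt18 nearby at 102028180 to 102032027. Krt8 had 3, 2, 4 and 12 reads. Krt18 had 2, 4, 6 and 5. Summed, the pair gave 0.237, 0.259, 0.482 and 0.774 CPM, so both BML-260 libraries lay above both vehicle libraries. The exact 95% Poisson intervals, which cover counting error only, ran from 0.0952 to 0.564 CPM in vehicle B and from 0.231 to 0.886 in BML-260 A, and so overlapped. The pair was not tested because both genes were under the filter. Among tested genes, 44.3% had groups that did not overlap, in either direction.

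Krt7, a type II partner of luminal epithelium, lies on chromosome 15 at 101411043 to 101430313 and overlaps the antisense gene Gm671. It had 6, 10, 7 and 5 reads, with no separation of the groups. Its FPKM (fragments scaled by transcript length and library size) did not follow its reads, at 0.089, 1.35, 0.328 and 0.18. The transcript length that reads and FPKM together imply was 3303, 321, 1067 and 1171 bases, taking the library total of expected counts as the number of fragments. GENCODE vM21 lists 5 Krt7 transcripts of 351 to 4094 bases, so the FPKM of this gene rested on which transcript a handful of reads was given to. For Krt8, with 1 listed transcript of 1958 bases, the implied length stayed between 1405 and 1600.

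The basal keratins were nearly absent. Krt5 (chromosome 15, 101707070 to 101712898), the type II keratin of basal epithelium, had 1, 0, 1 and 0 reads. Krt14 (chromosome 11, 100203162 to 100207548), its type I partner, had 1, 0, 0 and 1. Krt15 (chromosome 11, 100131758 to 100135928), a type I keratin of basal cells and hair follicle stem cells, had 0 reads in every library. Taking 3 reads as the limit that a count of 0 allows, the level could be up to 0.13 CPM in vehicle B and 0.144 CPM in BML-260 A. With so few reads no difference between the groups was detectable for these 3 genes.

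Krt10 and Krt79 had reads in every library, unlike Krt5, Krt14 and Krt15. Some other genes of skin, such as Sbsn, Dmkn and Krtdap (given below), also had reads in every library. They are the 3 highest of 21 listed genes of epidermal differentiation, of which 10 had 0 reads and 15 averaged under 10. Krt10 is the type I keratin of the layers above the basal layer and lies on chromosome 11 at 99385254 to 99389364. It had 63, 57, 32 and 40 reads, or 2.99, 2.46, 1.54 and 1.82 CPM. The vehicle libraries were both above the BML-260 libraries, at 2.73 ± 0.372 against 1.68 ± 0.199 CPM (SD, n = 2 each). The log2 fold change was -0.69 (SE 0.32, edgeR adjusted p = 0.496), with a 95% interval from -1.51 to 0.12. Krt1, the type II partner of Krt10 in epidermis, had 0 reads in all 4 libraries. The length implied by the reads and FPKM of Krt10 was 713 to 856 bases, between its 2 listed transcripts of 557 and 2094 bases, and the antisense gene Gm11940 overlaps the locus.

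Krt79 is a type II keratin known from the upper hair follicle and the duct of the sebaceous gland, on chromosome 15 at 101929332 to 101940324. It had 102, 58, 70 and 97 reads, or 4.84, 2.51, 3.37 and 4.42 CPM. The highest and the lowest value both came from vehicle libraries, and the BML-260 libraries lay between them. The log2 fold change was 0.09 (SE 0.40, edgeR adjusted p = 0.953), with a 95% interval from -0.93 to 1.1. Its sign turned without vehicle B (-0.31) or without BML-260 B (-0.13). The implied length of 1701 to 1863 bases varied little over the libraries, within the 465 to 2451 bases of its 4 listed transcripts.

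Trp63 was the member with the most reads in every library. The gene spans chromosome 16 from 25683763 to 25892102 on the plus strand, and 8 transcripts of 1729 to 5366 bases are listed. Its long TA forms and short ΔN forms start at separate promoters; the table gives 1 value per gene, so the forms cannot be told apart here. It had 393, 277, 122 and 157 reads, or 18.7, 11.97, 5.87 and 7.15 CPM. The 2 vehicle libraries were the 2 highest and the groups did not overlap, with a vehicle mean of 15.3 ± 4.72 CPM and a BML-260 mean of 6.51 ± 0.903 CPM (SD, n = 2 each). Counting error does not cover the gap between the vehicle libraries, whose exact 95% Poisson intervals ran from 16.9 to 20.6 and from 10.6 to 13.5 CPM.

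The log2 fold change of Trp63 was -1.23 (SE 0.28), with a 95% interval from -1.94 to -0.53. Its unadjusted p in edgeR was 0.00602, and 3.61% of tested genes were lower at an unadjusted p under 0.05. Adjusted over all genes it did not pass (edgeR adjusted p = 0.323). DESeq2 put it at -1.24 on the log2 scale and called it (DESeq2 adjusted p = 0.0175), along with 2.5% of the genes it adjusted, 0.502% lower. The authors' deposited table gives Trp63 a log2 fold change of -0.977 with an adjusted p of 0.0187, and it marks the gene as not significant; 2.23% of the genes it tests have an adjusted p under 0.05, and 0.431% have it and are lower with BML-260. With no filter on low counts, where every gene with a read was tested, edgeR passed 651 genes, against 1 of 15643 in the reported fit. The number tested without the filter was not counted, so the share called there is not known. Trp63 was among the 651 (log2 fold change -1.24, edgeR adjusted p = 0.0167). Over all alternatives the adjusted p ran from 0.0167 to 0.807, and the fold change was negative in each of them. Without vehicle A, the highest library, it was -0.90 (edgeR adjusted p = 0.807).

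**Figure D2:**
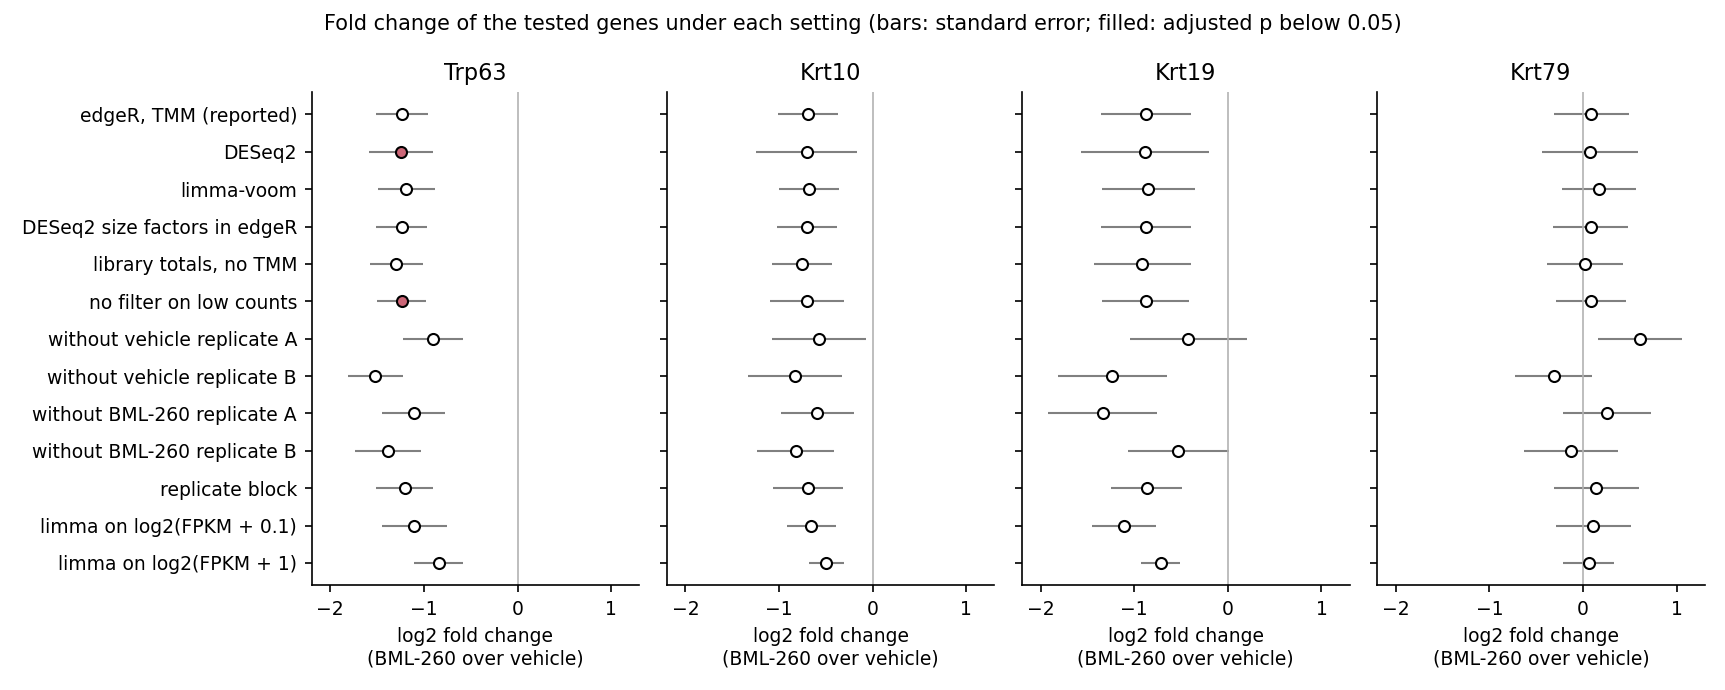
Log2 fold change, BML-260 over vehicle (x axis), of the 4 tested genes under each setting (y axis); points are estimates, bars 1 standard error, and filled points have an adjusted p below 0.05. Trp63 lies below zero under every setting shown and is filled with DESeq2 and without the filter, while Krt79 lies on both sides of zero.

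Groups that do not overlap are common in these data: 44.3% of tested genes had no overlap, and 21.5% had both BML-260 libraries below both vehicle libraries. Trp63, Krt10 and Krt19 are of the latter kind. The 3 tested genes of the basal and epidermal class had a median log2 fold change of -0.69, and the luminal class had only Krt19, at -0.87; over all tested genes the median was 0.02 and 47.5% were below zero. With so few genes tested the medians describe these genes and no class.

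Per length, the basal and epidermal members together lay above the luminal keratins in every library, but not without Krt10 and Krt79, where the log2 ratio was -0.075 in vehicle B and -0.29 in BML-260 A. The luminal keratins summed to 3.08, 3.53, 1.97 and 1.59 FPKM. In vehicle B, 1.35 FPKM of this came from 10 reads of Krt7, whose FPKM did not follow its reads. The FPKM ratios of vehicle B rest in part on that value. The basal and epidermal members summed to 12.03, 7.71, 5.73 and 6.75 FPKM, a ratio of 3.91, 2.18, 2.92 and 4.25 in which the groups overlapped. This sum is made of Trp63, Krt10 and Krt79. Krt5, Krt14 and Krt15 contributed 0.089, 0, 0.029 and 0.053 FPKM to it.

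By mean FPKM over the 4 libraries the order was Trp63 (3.15), Krt10 (2.75), Krt79 (2.11), Krt19 (1.71), Krt7 (0.488), Krt18 (0.177), Krt8 (0.161), Krt14 (0.028), Krt5 (0.0148) and Krt15 (0). Neighbours among the first 4 overlap in their library values, from 1.58 to 5.35 FPKM for Trp63, 1.97 to 3.83 for Krt10, 1.39 to 2.76 for Krt79 and 0.847 to 2.80 for Krt19. The mean FPKM of Trp63 was higher than that of 31.4% of tested genes and that of Krt19 higher than 22.1%, so even the most abundant members are low-level transcripts in this tissue.

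Other markers of epithelium were mixed: most of those specific to it had few reads, while some listed genes that other cells also express lay above every member. Of 18 genes of simple epithelium, 13 averaged under 10 reads per library. Epcam, a surface marker of nearly all simple epithelia, had 0, 3, 1 and 2. Cdh1, on the same list, had more, at 44, 39, 14 and 36 reads. Both BML-260 values of Cdh1 lay below both vehicle values (-0.70 on the log2 scale, SE 0.51). Vehicle B and BML-260 B were nearly equal there, at 1.69 and 1.64 CPM. St14 had 12, 21, 30 and 11 reads, and its groups overlapped. The 18 genes summed to 8.78, 8.59, 9.62 and 6.33 FPKM. Most of this came from the protease inhibitor gene Spint2 (6.01, 5.90, 7.39 and 4.68 FPKM), followed by Spint1 and Cldn3. Of 5 tested, 0 passed the edgeR test and 1, the tight junction gene Cldn3, lay lower at an unadjusted p under 0.05 (-1.76 on the log2 scale, SE 0.62, edgeR adjusted p = 0.428); 11.1% of all tested genes had an unadjusted p under 0.05. Of 18 mammary luminal genes, 11 averaged under 10 reads, and the milk protein genes Csn2, Csn3 and Wap and the luminal regulator Foxa1 had 0 reads. The 3 with the highest level, Lcn2, Aldh1a3 and Kit, are also made by immune, stromal or mast cells; 7 were tested, 0 passed in edgeR or DESeq2, 1 lay lower at an unadjusted p under 0.05 and the median log2 fold change was 0.32.

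Genes of basal and myoepithelial cells split by how specific they are. Of 15 listed, Krt6a, Krt16 and Dsg3 had 0 reads and Krt17 had 9, all in BML-260 B. The 3 highest were the laminin receptor subunit genes Itga6 and Itgb4, which endothelium and nerve also use, and the oxytocin receptor gene Oxtr. Oxtr had 377, 753, 252 and 391 reads (log2 fold change -0.75, SE 0.34). Of the 9 tested, 0 passed in edgeR or DESeq2, 0 had an unadjusted p under 0.05 and the median was -0.23. The desmosomal cadherin gene Dsc3 had 91 reads in BML-260 A and 0 in the other 3 libraries.

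Hair follicle and sebaceous genes gave 4 tested of 16 in the table (Krt85 was not matched), with 0 called by edgeR or DESeq2, a median of 0.59 and 7 genes with 0 reads. Soat1, Mc5r and Sox9 were the highest, and Soat1 alone had an unadjusted p under 0.05, as did 7.45% of all tested genes in the higher direction. Mesothelium, which also makes Krt8, Krt18 and Krt19, gave 2 tested of 8, with 0 called by either tool, 0 at an unadjusted p under 0.05, a median of -0.27 and summed levels of 1.49, 1.88, 1.46 and 1.34 FPKM. Its markers Wt1, Upk1b and Muc16 had 0 reads, and the highest 3 were Gpm6a, Lrrn4 and Msln. Genes that link keratin filaments to junctions were present through Dst, Jup and Plec, which many tissues express, while Dsp, the desmosomal plaque protein of all epithelia, had 0, 1, 0 and 1 reads. Of 8 tested linkers 0 passed in edgeR, with a median of 0.41. Plec was higher at an unadjusted p under 0.05 in edgeR, as were 7.45% of all tested genes. It was the 1 linker called higher by DESeq2, which called 2.5% of the genes it adjusted in either direction.

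Tested genes known as p63 targets or as regulators of stratified epithelium lay on both sides of zero, more of them below. Of 15 listed genes, Trp63 included, 8 were tested, 0 passed the edgeR test, 1 (Trp63 itself) had an unadjusted p under 0.05 and was called by DESeq2, 2 lay above zero and 6 below, and the median was -0.17. The most abundant were Klf4 (log2 fold change -0.03, SE 0.19), Notch1 (-0.28, SE 0.12) and Jag2 (0.08, SE 0.21), all also expressed outside epithelium. Perp and Col17a1, epithelial p63 targets that the basal list also holds, had 34, 33, 21 and 18 reads and 9, 13, 10 and 10 reads. Their log2 fold changes were -0.73 (SE 0.38) and -0.08 (SE 0.51), with edgeR adjusted p-values of 0.540 and 0.967.

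**Figure D3:**
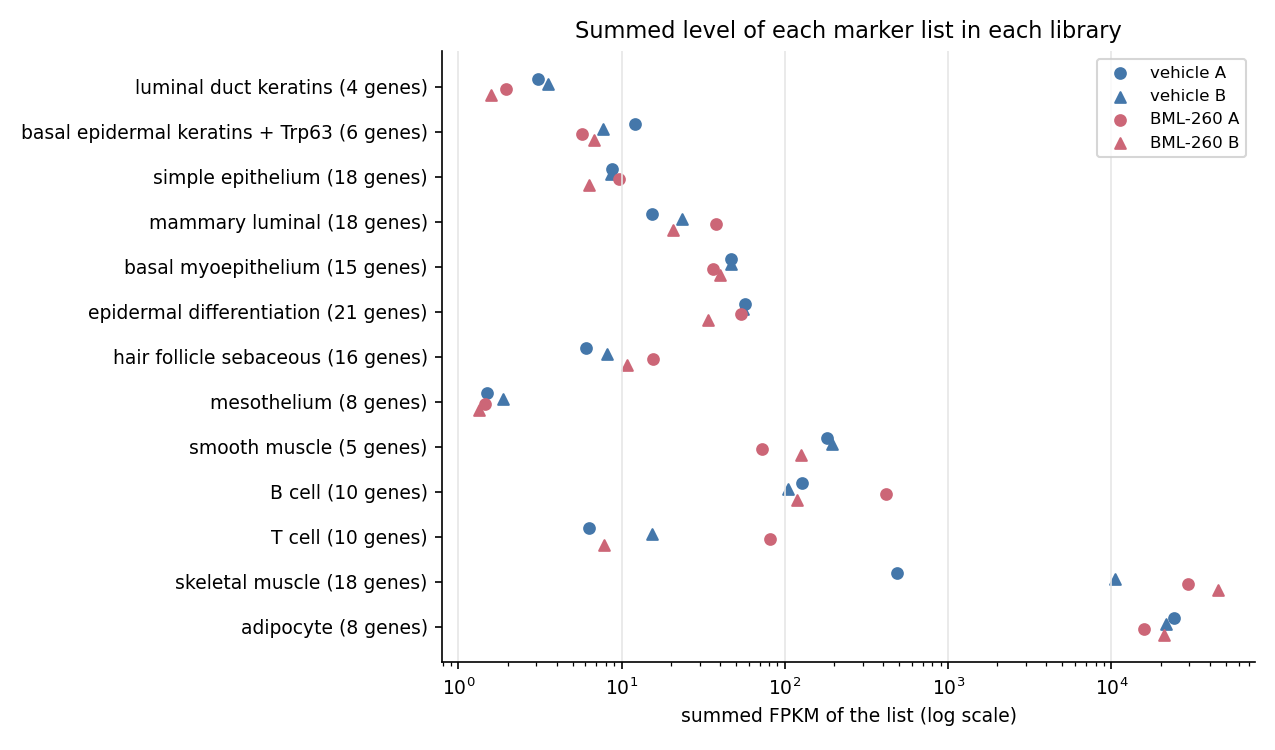
Summed FPKM (x axis, log scale) of the 2 gene classes and 11 marker lists (y axis) in each library; blue is vehicle, red BML-260, circles library A and triangles library B. The luminal keratins lie between 1.59 and 3.53 and the adipocyte genes between 15874 and 24015 FPKM, and skeletal muscle separates the libraries most.

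Markers of other cell types differed between the libraries. Beside the lower values of Trp63, Krt10 and Krt19 with BML-260, the medians of the adipocyte and smooth muscle lists were negative and those of the skeletal muscle and lymphocyte lists positive. Skeletal muscle genes took 0.0503%, 1.24%, 3.59% and 4.94% of counts (17 of 18 tested, 0 called by edgeR or DESeq2, 5 higher at an unadjusted p under 0.05, median 2.74). Lymphocyte genes peaked in BML-260 A. Genes of B cells summed to 126, 104, 416 and 118 FPKM (5 of 10 tested, 0 called by either tool, 3 higher at an unadjusted p under 0.05, median 3.65), those of T cells to 6.34, 15.3, 81.1 and 7.84 (10 tested, 0 called by either tool, 3 higher at an unadjusted p under 0.05, median 1.98) and those of lymph node stroma to 56.9, 68.2, 215 and 35.4 (5 of 7 tested, 0 called by either tool, 0 at an unadjusted p under 0.05, median 0.46). The 8 adipocyte genes summed to 24015, 21643, 15874 and 21023 FPKM (0 called by edgeR, 1 lower by DESeq2 and 1 at an unadjusted p under 0.05, median -0.37). The 5 smooth muscle genes, which myoepithelium also expresses, summed to 180, 194, 72.6 and 126 FPKM (0 called by edgeR, 1 by DESeq2 and 3 at an unadjusted p under 0.05, median -0.87, and lower in both BML-260 libraries for all 5). Of all tested genes, 3.61% were lower and 7.45% higher at an unadjusted p under 0.05 in edgeR. Both BML-260 libraries lay below both vehicle libraries for 21.5%, and DESeq2 called 0.502% of the genes it adjusted lower. The Y-linked genes of the sex list were read in every library (Ddx3y 1778, 1552, 1677 and 1896 reads). Xist had 11, 4, 0 and 4 reads. This is the pattern of male tissue, while the labels used here give no sex. Of 4 genes of the sex list tested, 0 passed in edgeR or DESeq2, 0 had an unadjusted p under 0.05 and the median was 0.16.

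Trp63 ordered the libraries as the adipocyte list did, vehicle A highest, then vehicle B, BML-260 B and BML-260 A. Set against that list, Trp63 stood at 2.23, 1.55, 0.995 and 1.11 FPKM per 10000 FPKM of adipocyte genes, and the groups still did not overlap. Krt10 on the same scale stood at 1.59, 1.37, 1.41 and 0.937, and its groups then overlapped. Krt19 stood at 1.17, 0.905, 0.789 and 0.403, and its groups did not. Against the smooth muscle list Trp63 stood at 2.98, 1.73, 2.18 and 1.85 FPKM per 100 FPKM, and there the groups overlapped. Those of Krt10 and Krt19 overlapped there too. These ratios were chosen after the values had been seen. The part of adipocyte, smooth muscle or skeletal muscle content in the Trp63 difference was not tested. Leaving out both vehicle A, the library with the least muscle, and BML-260 A, the one with the lymphocyte genes, left 1 library a group and a log2 difference of -0.74, with no test.

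The genes whose profile over the 4 libraries lay nearest to that of Trp63 were Cfap100, Cytl1, AU021092, Ncmap and Gm26561, by the Euclidean distance of centred log2 CPM among 14158 genes with a mean of at least 1 CPM. Their distances ran from 0.163 to 0.275. Cfap100 had 4.89, 3.03, 1.3 and 1.87 CPM. None passed the test, with adjusted p from 0.285 to 0.423 in edgeR. With 4 libraries many genes can share a profile, and Trp63 was taken as the query after its values were seen.

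By gene symbol, 54 keratin genes are in the table, 31 of them with no read in any library and 16 with 1 to 30 reads in all. The 9 keratins described above held 34.7% of the 2136 keratin reads. The remaining 4 of the 7 that passed the filter were Krt80, Krt36, Krt222 and Krt20. Krt80, a type II keratin found in many epithelia late in differentiation, was the most abundant, with 7.21, 9.90, 12.1 and 6.10 CPM and no shift beyond its error (log2 fold change 0.09, SE 0.38). Krt36, a hair-type keratin, had 4.08, 2.98, 3.27 and 2.37 CPM (log2 fold change -0.32, SE 0.33), Krt222 had 1.95, 2.72, 3.47 and 1.64, and Krt20, known from gut and urinary epithelium, 0.332, 1.08, 0.770 and 0.957. In each of these 4 the groups overlapped. Of the 7 tested keratins 0 passed the edgeR test, and 0 reached an unadjusted p under 0.05.

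**Figure D4:**
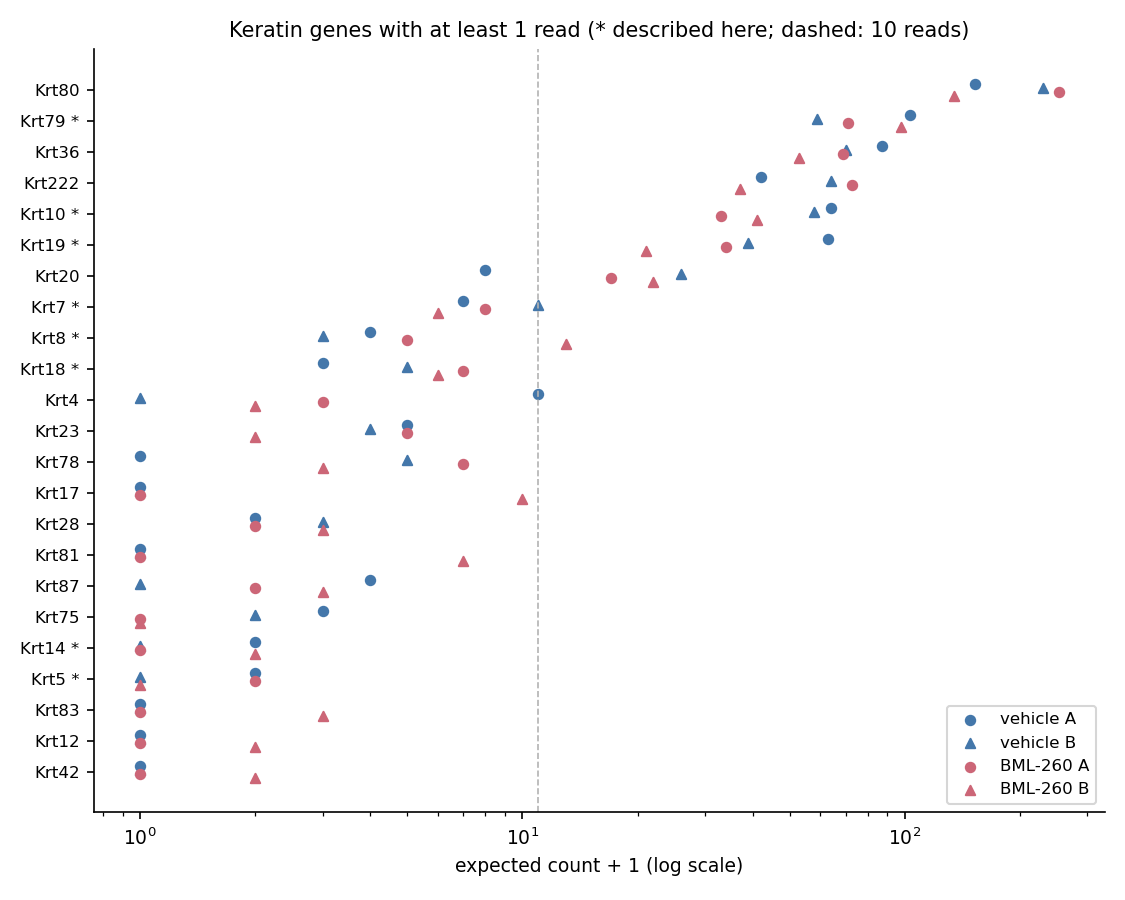
Expected count plus 1 (x axis, log scale) in each library for the 23 keratin genes with at least 1 read (y axis, ordered by total reads); blue is vehicle, red BML-260, circles library A, triangles library B, and a star marks the keratins described here. Krt80 leads with 134 to 252 reads, and Krt5 and Krt14 lie near the bottom with at most 1 read in any library.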

How the data were processed

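The labels' protocols name TRIzol for total RNA and standard Illumina library preparation. The authors deposited expected counts per gene, which are estimates and need not be whole, and FPKM values, per the file headers. The authors also deposited group means and, from their own comparison of the groups, log2 fold changes, each with its p-value before and after adjustment, per the file headers. Listed without roles in the submitters' processing notes are the build GRCm38.p5, RSEM 1.2.31, HISAT2 2.1.0 and DESeq2 1.10.1. No source used here gives the annotation or strand setting, so overlapping and antisense genes have uncertain counts. Coordinates and transcript lengths are from GENCODE vM21 (GRCm38).

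Expected counts were rounded. Genes passing filterByExpr (15643) were tested with edgeR 4.0.16 (R 4.3.3; quasi-likelihood, TMM, group as the only term, two-sided, Benjamini-Hochberg at 0.05), in a model with 2 residual degrees of freedom. Standard errors are the log2 fold change over the square root of F. DESeq2 1.42.0, limma 3.58.1 (voom, and log2 of FPKM plus 0.1 or 1), other scalings, no filter, leaving out each library and the library letter as a term were alternatives; the code was tested on simulated data. The 2 libraries of a group differed by more than counting noise (chi-square per degree of freedom 37.3 and 42.1).

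The members and the 15 other gene lists were chosen with earlier results of these data known. Besides the 10 genes, the text names the 3 members of each epithelial list with the highest mean FPKM, all keratins that passed the filter, and genes nearest in profile. Profiles of Krt8 with Krt18 and of Krt5 with Krt14 were to be used for the last, but rest on at most 12 reads a library and are not reported; Trp63 was used instead. Other genes were named after their values were seen.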

Additional observations from a re-analysis of the deposited data

How the results depend on the processing

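The count of genes passing the test was 1 in the reported fit, 389 with DESeq2, 651 with no filter on low counts and 0 with the replicate block (library letter as a term), and ran from 0 to 309 when a library was left out (0 without vehicle A, 309 without vehicle B, 5 without BML-260 B). The count of members passing was 0, and 1 with DESeq2 or with no filter, Trp63 in both. Trp63, Krt10 and Krt19 kept a negative fold change under all 13 alternatives each; Krt79 ran from -0.31 to 0.61 when a library was left out. The replicate block changed no call of a member (Trp63 -1.20, edgeR adjusted p = 0.433). The letters share only a name: over tested genes the A minus B differences of the groups correlated at -0.059. Leaving out a library leaves 1 sample in a group, which is assumed to vary like the other.

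With no filter, which admits members of few reads, the medians were 0.28 over 4 luminal keratins and 0.019 over 5 basal and epidermal members; when a library was left out the luminal median ran from -0.66 to 0.055, as the filter then admitted 1 to 3 keratins. Without Krt10 and Krt79 the basal and epidermal value is that of Trp63, -1.23. The log2 ratio of basal and epidermal to luminal FPKM was 1.97, 1.13, 1.54 and 2.09 in vehicle A, vehicle B, BML-260 A and BML-260 B. From summed CPM it was 2.94, 2.86, 2.17 and 2.81, without Krt10 and Krt79 it was 0.82, -0.075, -0.29 and 0.58, and without Trp63 it was 1.12, 0.30 and 1.48 in all but BML-260 A, where it moved less than the spread. The cause of these shifts was not tested. The FPKM ratios of vehicle B hold Krt7, whose FPKM there rested on 10 reads. Depth limits the 6 untested genes, which had 0 to 12 reads in a library.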

Other observations

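Among 21 genes of epidermal differentiation, 10 had 0 reads in all libraries, including Krt1, Krt2, Flg and Ivl, and 15 averaged under 10 reads. The 3 with the highest level were Sbsn (suprabasin), Dmkn (dermokine) and Krtdap (keratinocyte differentiation associated protein), which are neighbours on chromosome 7 of GRCm38, at 30751471 to 30756134, 30763756 to 30781063 and 30787896 to 30791097 on the plus strand. In vehicle A, vehicle B, BML-260 A and BML-260 B, Sbsn stood at 29.2, 33.0, 29.3 and 20.4 FPKM, Dmkn at 13.03, 12.5, 9.57 and 5.55, and Krtdap at 13.1, 8.39, 12.6 and 6.40. Each was lowest in BML-260 B. Their log2 fold changes were -0.39 (SE 0.22), -0.74 (SE 0.34) and -0.81 (SE 0.45), with edgeR adjusted p-values of 0.563, 0.489 and 0.558. In FPKM each of the 3 exceeded every keratin in every library. In reads only Sbsn did, with 505, 750, 510 and 409. Krtdap, a short transcript, had 32, 26, 19 and 13 reads (1.52, 1.12, 0.915 and 0.592 CPM), fewer than Krt10, Krt19, Krt79 or Krt80 in each library. Dmkn, at 4.46, 4.58, 3.37 and 2.05 CPM, lay below Krt80. Of the 6 tested genes of the list 0 passed in edgeR or DESeq2, 0 had an unadjusted p under 0.05, and the median was -0.14. In which cells of this tissue they are transcribed was not tested.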
